A study of Mus musculus with 10 samples.

Results

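The Slc35a family of nucleotide sugar transporters was examined in RNA-sequencing of C2C12 cells with and without a knockdown of *Fndc1*. Its 5 members, *Slc35a1* to *Slc35a5*, were found by gene symbol in a table of 55359 genes, and all 5 lay among the 13548 genes with a mean level of at least 0.5 FPKM, the filter used for testing. FPKM is the authors' read count scaled by library size and by a length that they set for each gene. The family was chosen by the difference of *Slc35a4* between si-*Fndc1* and si-Control in these libraries, which had the smallest p-value of all tested genes. The values of *Slc35a4* are therefore given as a description without a test, and tests are given for its 4 relatives, which enter by name. The members and the gene lists below were chosen with earlier results of these data known.

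C2C12 is a mouse myoblast line whose cells withdraw from the cell cycle and fuse into myotubes when serum is lowered. Cells were grown with 20% fetal bovine serum as listed for the samples, while the paper's methods give a lower share for C2C12 cells. The cells were transfected with 100 nM of siRNA and moved to 2% horse serum. The siRNA was either a scrambled control (si-Control, 5 libraries) or one against *Fndc1* (si-*Fndc1*, 5 libraries). By the labels the cells were harvested at day 4 of differentiation, but the series text gives 48 h after transfection. The model is thus a single cell line with transient knockdown, and no untransfected cells were analysed. The labels do not say that libraries of a group came from separate cultures, so that the p-values below measure the spread between these libraries, which may be technical.

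Nucleotide sugar transporters sit in the membranes of the Golgi apparatus and the endoplasmic reticulum. They bring activated sugars, which are made in the cytosol or nucleus, to the glycosyltransferases of the lumen, and nucleoside monophosphates leave in exchange. SLC35A1 carries CMP-sialic acid, SLC35A2 carries UDP-galactose and SLC35A3 is linked to UDP-N-acetylglucosamine. SLC35A4 has been reported to carry CDP-ribitol, the donor of the ribitol phosphate units on alpha-dystroglycan, the receptor by which muscle fibers hold the basement membrane. The leader of its mRNA also encodes a microprotein of the mitochondrial inner membrane.

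In the gene table, whose genome build is not named, *Slc35a4* (ENSMUSG00000033272) is listed on the plus strand of chromosome 18 from 36812268 to 36816914. *Slc35a1* (ENSMUSG00000028293) is a minus-strand gene of chromosome 4, listed from 34663257 to 34687438. *Slc35a2* (ENSMUSG00000031156) lies on chromosome X from 7750267 to 7760731 on the plus strand. *Slc35a3* (ENSMUSG00000027957) lies on chromosome 3 from 116463119 to 116506299, and *Slc35a5* (ENSMUSG00000022664) lies on chromosome 16 from 44959936 to 44979069, both on the minus strand. The members thus lie on 5 chromosomes, and no member is a neighbor of another.

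The transcripts of the members differ in length, base composition and leader. In the GENCODE annotation of the build NCBIM37, the *Slc35a4* transcript with the longest coding sequence has 2462 bases, encodes 324 residues and has a GC content of 55.3%. That of *Slc35a2* has 2316 bases, 438 residues and 53.9% GC. The other three are poorer in G and C: 44.2% for *Slc35a1* (2039 bases, 336 residues), 39.8% for *Slc35a5* (4233 bases, 437 residues) and 38.8% for *Slc35a3* (5726 bases, 326 residues). The leader of *Slc35a4* was the longest of the 5, with 722 bases. It holds 12 start codons with a stop codon in frame before the coding sequence, the longest of these frames having 103 codons. The leader of *Slc35a5* (345 bases) holds 6 such frames of at most 32 codons, and those of the other three members (9 to 586 bases) hold 0. Gene counts do not separate reads of a leader frame from reads of the coding sequence. Between members, 56.3% to 63.8% of aligned coding bases were identical, and the longest run shared by any pair of transcripts was 19 bases, shorter than a read of either length that the sources give.

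Libraries held 66771605 to 75995168 counts for si-Control and 56332844 to 72839369 counts for si-*Fndc1*. *Fndc1*, which encodes a secreted protein with fibronectin type III domains, was measured at 26.7, 24.7, 28.7, 29.6 and 29.2 FPKM in si-Control libraries 1 to 5. It was measured at 20.4, 23.5, 20.8, 21.1 and 18.7 FPKM in si-*Fndc1* libraries 1 to 5. Every si-*Fndc1* library thus lay below every si-Control library, as was so for 13.0% of tested genes. *Fndc1* fell by 0.40 on the log2 scale (edgeR, standard error 0.07, p adjusted over all tested genes 0.000934). With an offset that removes the trend of counts with GC content and length in every library, it was at -0.22 (edgeR, adjusted p = 0.0104, and 2.4e-07 to 0.0431 over all alternatives). Of 15 myogenic marker genes 3 rose (20%, against 17.3% of all tested genes) and 2 fell (13.3%, against 17.2%). On the log2 scale *Ckm* (0.39), *Mymk* (0.26) and *Myod1* (0.16) rose, and *Ttn* (-0.45) and *Mymx* (-0.17) fell, all named after their values were seen. The 15 genes summed to 4745 to 5336 FPKM in the controls and 4518 to 5342 FPKM in the knockdown, a sum in which such opposite changes do not show. Genes of undifferentiated myoblasts, 7 in number, summed to 34.6 to 39.2 and 34.5 to 39.1 FPKM, and 0 of them were called. The si-*Fndc1* libraries also held transcripts of hepatocytes. All 25 markers on that list had a higher mean in si-*Fndc1*, and none was at 0 in every library of a group. All 20 tested ones rose, but markers near 0 in si-Control passed the level filter only through si-*Fndc1*. One such marker is *Ambp*, with means of 0.0208 FPKM in si-Control and 3.58 FPKM in si-*Fndc1*. For such markers a rise follows from the filter and is no further evidence. The 25 markers summed to 1.39 to 8.98 FPKM in the controls and to 66.8 to 223.7 FPKM in the knockdown.

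*Slc35a4* was the most highly expressed member of the family in the control cells and was at less than 10 FPKM in each library of the knockdown. Its level was 26.0, 25.2, 27.3, 26.1 and 26.2 FPKM in si-Control libraries 1 to 5. It was 8.71, 6.80, 7.45, 7.01 and 8.28 FPKM in si-*Fndc1* libraries 1 to 5. The groups did not overlap, and the gap between them was wider than the range within either group. The means were 26.2 ± 0.750 and 7.65 ± 0.822 FPKM (SD, n = 5 each), a level 70.8% lower in si-*Fndc1*. Behind these levels stood 6386 to 7197 reads per si-Control library and 1697 to 2248 reads per si-*Fndc1* library, so that counting error was small. Relative to the mean, the spread between libraries was 2.87% in si-Control and 10.8% in si-*Fndc1*. The fit of edgeR put the difference at -1.77 on the log2 scale, with a standard error of 0.07, which ranked 27 from the lowest of all tested genes. In bulk RNA, fewer cells that express a gene and less RNA per cell cannot be told apart.

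**Figure D1:**
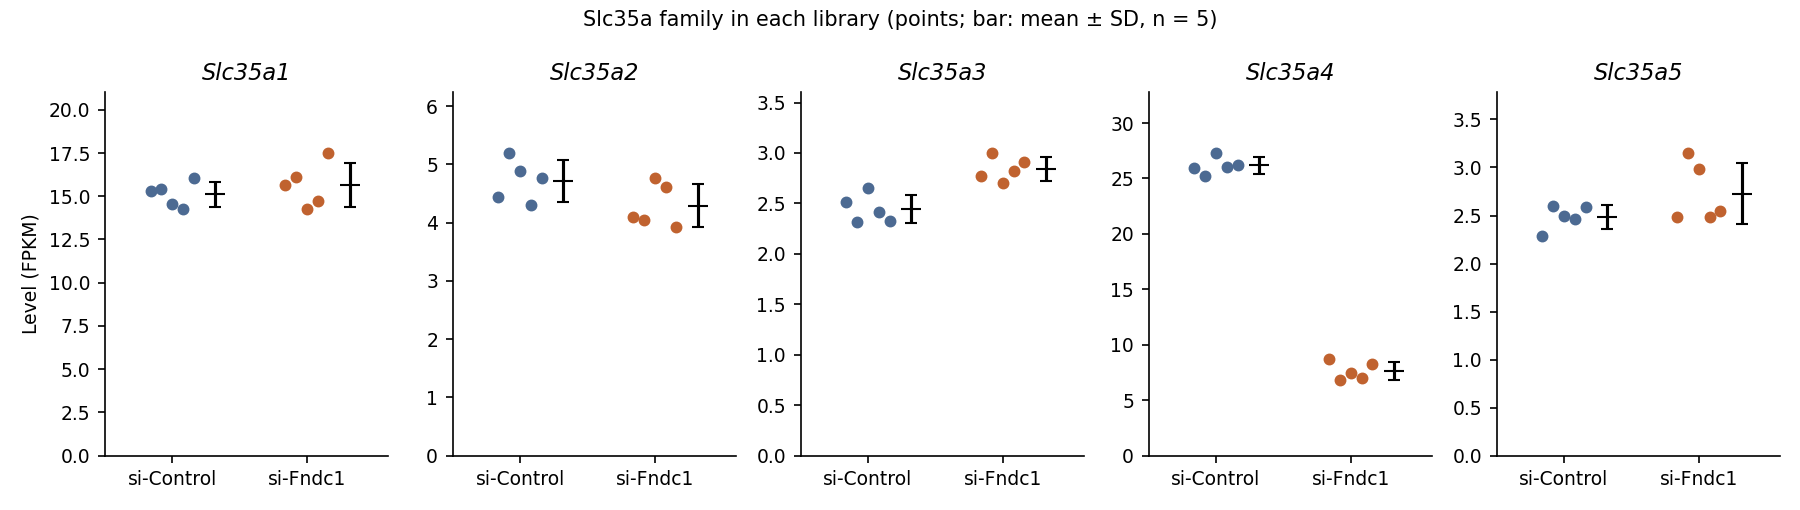
Level of each Slc35a member in FPKM (y axes from 0, one scale per gene) in the 5 si-Control and 5 si-*Fndc1* libraries (points), with the mean ± SD beside them. *Slc35a4* sits near 26.2 FPKM in si-Control and near 7.65 FPKM in si-*Fndc1*, *Slc35a3* is slightly higher in every si-*Fndc1* library, and the groups overlap for the other three.

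The plot of members by library also shows that the shift of *Slc35a4* was alike in all 5 knockdown libraries. The highest level, 8.71 FPKM, was in si-*Fndc1* library 1 and the lowest, 6.80 FPKM, in library 2. The hepatocyte marker sum was 122.6, 223.7, 221.0, 218.7 and 66.8 FPKM in si-*Fndc1* libraries 1 to 5. Libraries 1 and 5, the lowest in that sum, were the highest in *Slc35a4*. The log2 fold change of *Slc35a4* was -1.82 to -1.73 with each library left out in turn, a range over the same libraries by which the gene was chosen. The part of the hepatocyte transcripts in the level of *Slc35a4* was not tested.

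The relatives of *Slc35a4* stayed close to their control levels. Of the 4, *Slc35a3* rose, and *Slc35a1*, *Slc35a2* and *Slc35a5* did not pass the test. Among all 13548 tested genes 34.4% were called in either direction (17.3% rose and 17.2% fell), and the median log2 fold change was 0.00, so that 1 called relative of 4 is not more than is usual for genes in these data.

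*Slc35a3*, the transporter linked to UDP-N-acetylglucosamine, was at 2.51, 2.32, 2.65, 2.42 and 2.33 FPKM in si-Control libraries 1 to 5. In si-*Fndc1* libraries 1 to 5 it was at 2.77, 3.004, 2.70, 2.82 and 2.91 FPKM. All si-*Fndc1* libraries lay above all si-Control libraries, as was so for 12.1% of tested genes. The means were 2.45 ± 0.138 and 2.84 ± 0.118 FPKM (SD, n = 5 each), a difference of 0.22 on the log2 scale (edgeR, standard error 0.05, adjusted p = 0.00639). An exact permutation test of the FPKM values gave p = 0.00794, two-sided, which is the smallest p that 5 against 5 libraries allow. With the offset for GC content and length the difference was 0.08 (adjusted p = 0.249, and 0.000638 to 0.371 over all alternatives), and the call was lost.

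*Slc35a1*, the CMP-sialic acid transporter, was at 15.3, 15.4, 14.6, 14.2 and 16.1 FPKM in si-Control libraries 1 to 5. In si-*Fndc1* libraries 1 to 5 it was at 15.6, 16.1, 14.2, 14.7 and 17.5 FPKM. The groups overlapped almost entirely, with means of 15.1 ± 0.726 and 15.6 ± 1.29 FPKM (SD, n = 5 each). In edgeR the difference of 0.06 on the log2 scale, with a standard error of 0.06, was not called (adjusted p = 0.496). With the offset for GC content and length it turned to -0.20 (adjusted p = 0.0382, and 0.0371 to 0.848 over all alternatives), and *Slc35a1* was then called as fallen.

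*Slc35a2*, the UDP-galactose transporter, was at 4.44, 5.20, 4.88, 4.30 and 4.77 FPKM in si-Control libraries 1 to 5. In si-*Fndc1* libraries 1 to 5 it was at 4.10, 4.04, 4.76, 4.61 and 3.93 FPKM. Libraries 3 and 4 of the knockdown lay within the control range and the other three below it. The means of 4.72 ± 0.360 and 4.29 ± 0.372 FPKM (SD, n = 5 each) differed by -0.13 on the log2 scale (edgeR, standard error 0.08, adjusted p = 0.218), which was not called. Under the offset for GC content and length it was -0.01 (adjusted p = 0.913, and 0.113 to 0.919 over all alternatives).

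*Slc35a5*, an orphan member whose substrate is less settled, was at 2.29, 2.59, 2.50, 2.46 and 2.58 FPKM in si-Control libraries 1 to 5. In si-*Fndc1* libraries 1 to 5 it was at 2.48, 3.15, 2.98, 2.48 and 2.55 FPKM. Libraries 2 and 3 of the knockdown lay above the control range, and the other three lay within it. The means were 2.49 ± 0.123 and 2.73 ± 0.317 FPKM (SD, n = 5 each), and the difference of 0.14 on the log2 scale was not called (edgeR, standard error 0.08, adjusted p = 0.197). With the offset for GC content and length it was -0.02 (adjusted p = 0.863, and 0.134 to 0.863 over all alternatives).

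**Figure D2:**
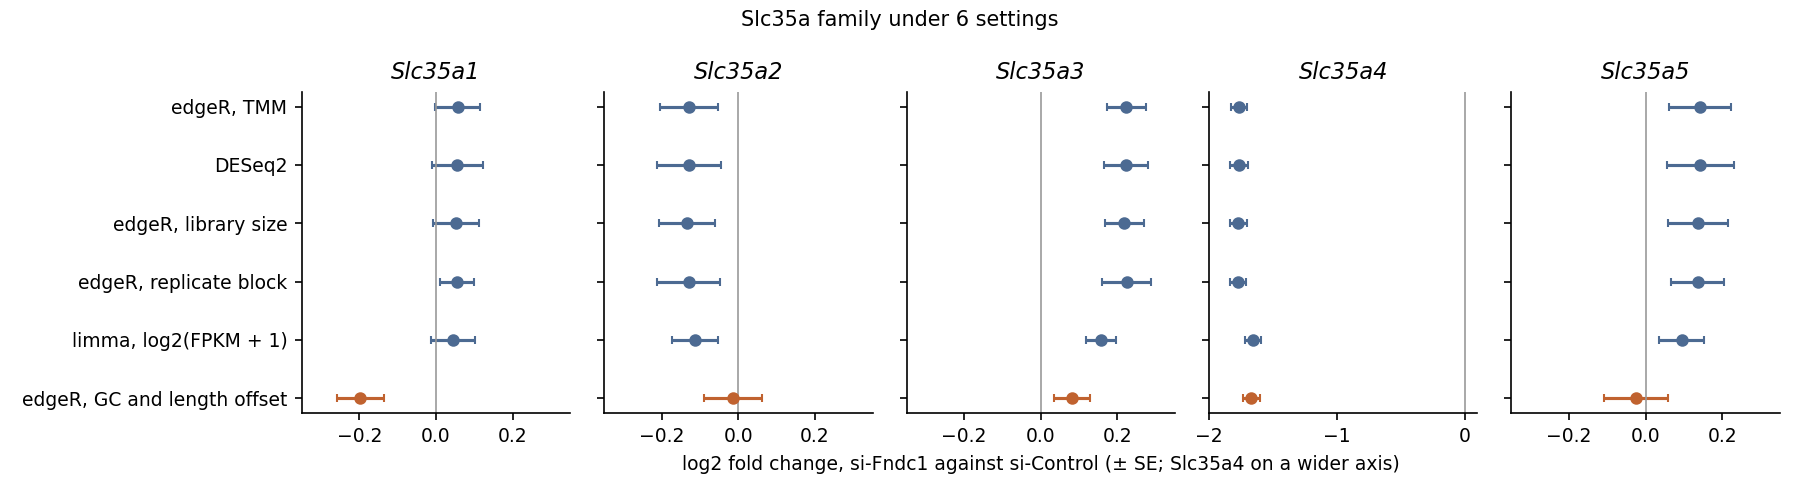
Log2 fold change ± standard error (x axes) of each member in si-*Fndc1* against si-Control under 6 settings (rows), with no change at the vertical line and a wider axis for *Slc35a4*. The offset for GC content and length (lowest row) moves all members toward lower values except *Slc35a2* and *Slc35a4*, which move toward 0, and *Slc35a4* stays between -1.77 and -1.66 in every row.

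The plot of settings shows that the offset changed the sign of *Slc35a1* and *Slc35a5*. GC-rich genes tended to have lower log2 fold changes than GC-poor ones (Spearman rho -0.52 over genes, given as a description since genes are not replicates). *Slc35a4* has the highest GC content of the family, and its log2 fold change was -1.67 with the offset. The GC-poor members *Slc35a1*, *Slc35a3* and *Slc35a5* had values above 0 without the offset, and with it -0.20, 0.08 and -0.02.

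The order of the levels changed at the top, which follows from the fall of *Slc35a4* by which the family was chosen. In si-Control the order was *Slc35a4*, *Slc35a1*, *Slc35a2* and then *Slc35a5* and *Slc35a3*, and in si-*Fndc1* it was *Slc35a1*, *Slc35a4*, *Slc35a2* and then *Slc35a3* and *Slc35a5*. *Slc35a4* was above *Slc35a1* in 5 of 5 si-Control libraries and below it in 5 of 5 si-*Fndc1* libraries. The ranges of neighbors in this order did not overlap within a group, except for *Slc35a3* and *Slc35a5*, whose ranges overlapped in both groups. These levels are per length as the authors set it, and the lengths implied by their FPKM values (2552 bases for *Slc35a1* to 12004 bases for *Slc35a3*) were longer than the transcripts above.

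The 5 members together summed to 50.9 ± 1.04 FPKM in si-Control and 33.1 ± 1.40 FPKM in si-*Fndc1* (SD, n = 5 each). The relatives alone summed to 24.8 ± 0.931 and 25.5 ± 1.05 FPKM, and these sums overlapped between groups (exact permutation test, two-sided p = 0.246, n = 5 each). *Slc35a4* made up 51.4% ± 1.32 of the family sum in si-Control and 23.1% ± 1.96 in si-*Fndc1*. *Slc35a1* made up 29.7% ± 1.21 and 47.1% ± 2.14. These sums and shares contain *Slc35a4*, so that they shift with the fall by which the family was chosen. Of the sum of the 4 relatives alone, *Slc35a1* made up 61.0% ± 1.36 in si-Control and 61.3% ± 2.82 in si-*Fndc1*. *Slc35a2* made up 19.0% ± 1.01 and 16.9% ± 2.06, and *Slc35a5* 10.0% ± 0.435 and 10.7% ± 1.23. *Slc35a3* made up 9.90% ± 0.786 and 11.1% ± 0.289. The groups overlapped in these shares except for *Slc35a3*, and the shares were not tested.

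**Figure D3:**
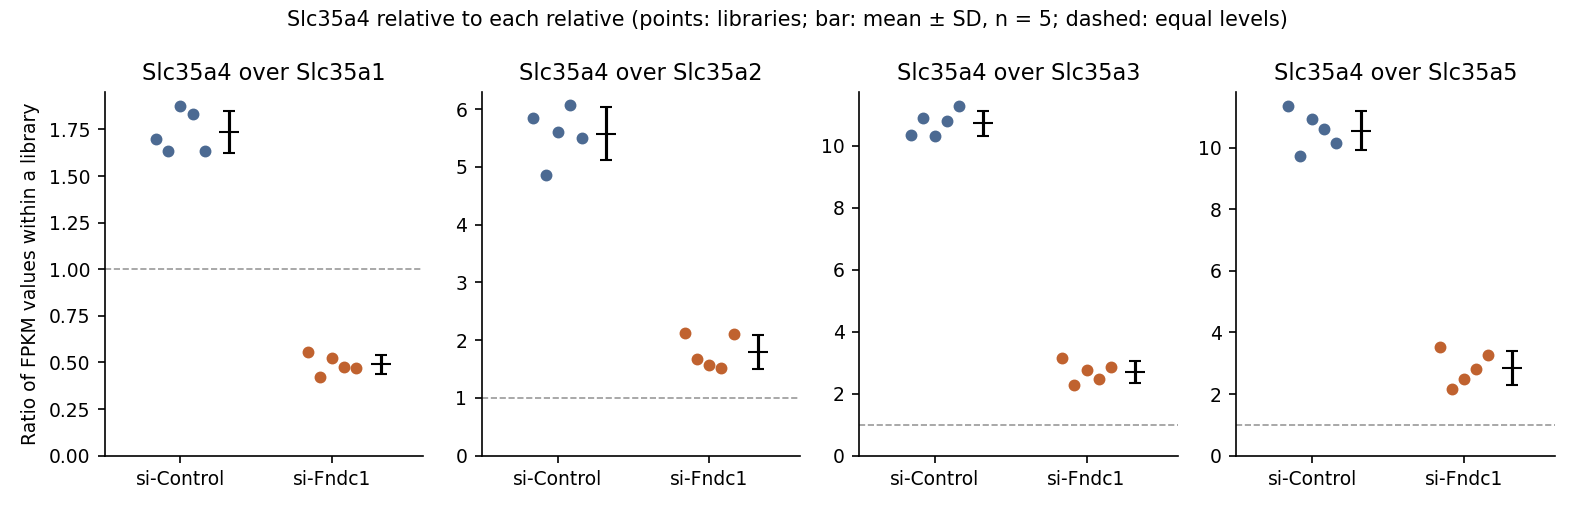
FPKM of *Slc35a4* divided by that of each relative within a library (y axes from 0), in 5 si-Control and 5 si-*Fndc1* libraries (points) with the mean ± SD beside them and equal levels at the dashed line. The groups lie apart for all 4 relatives, and the ratio to *Slc35a1* crosses 1, from 1.74 in si-Control to 0.490 in si-*Fndc1*. *Slc35a4* was chosen for its fall, from which this separation follows.

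The plot of ratios uses each library as its own reference, so that it does not depend on scaling between libraries. The numerator, *Slc35a4*, was chosen for its fall. The gap between groups thus follows from the choice and is a description, not further evidence. The level of *Slc35a4* over that of *Slc35a1* was 1.74 ± 0.113 in si-Control and 0.490 ± 0.0519 in si-*Fndc1*. Over *Slc35a2* it was 5.58 ± 0.460 and 1.80 ± 0.295, over *Slc35a3* 10.7 ± 0.404 and 2.70 ± 0.340, and over *Slc35a5* 10.6 ± 0.633 and 2.85 ± 0.549 (SD, n = 5 each). *Slc35a4* remained above *Slc35a2*, *Slc35a3* and *Slc35a5* in all 10 libraries.

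Among the relatives, 6 pairs of members were compared by the log2 ratio of their FPKM values (exact permutation tests, two-sided, adjusted over the 6 pairs). The ratio of *Slc35a2* to *Slc35a3*, of the UDP-galactose transporter to the one linked to UDP-N-acetylglucosamine, was 0.95 ± 0.15 in si-Control and 0.59 ± 0.17 in si-*Fndc1* on the log2 scale (SD, n = 5 each; exact permutation p = 0.00794, adjusted p = 0.0476). The groups did not overlap for this pair. These FPKM ratios carry no offset for GC content, which is 53.9% for *Slc35a2* and 38.8% for *Slc35a3*. With the offset the log2 fold changes of the pair were -0.01 and 0.08, against -0.13 and 0.22 without it, and the ratio itself was not tested with the offset. The ratio of *Slc35a2* to *Slc35a5* differed by -0.27 (exact permutation p = 0.0238, adjusted p = 0.0714) and that of *Slc35a1* to *Slc35a3* by -0.17 (p = 0.0476, adjusted p = 0.0952), and both missed the threshold after adjustment. The adjusted p-values of the other three pairs were 0.238 to 0.452. With any 1 library left out the smallest p is 0.0159, which cannot pass after adjustment over 6 pairs unless other pairs are as low, and the *Slc35a2* to *Slc35a3* ratio then had an adjusted p of 0.0476 to 0.0952.

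No gene next to *Slc35a4* on chromosome 18 was as low as *Slc35a4*, which was likely beforehand since *Slc35a4* was chosen for its fall. The log2 fold changes of the tested neighbors of *Slc35a4* lay between -0.23 and 0.05. *Apbb3*, which encodes an adaptor that binds the amyloid precursor protein, is listed on the minus strand and overlaps the start of *Slc35a4* by 152 bases. It had 469 to 740 reads per library against at least 1697 for *Slc35a4*, and no source states if strand was used in counting. *Apbb3* fell by 0.23 on the log2 scale (edgeR, standard error 0.08, adjusted p = 0.0377), from 2.44 ± 0.189 to 2.06 ± 0.139 FPKM (SD, n = 5 each), and the groups overlapped. Its call was lost without any 1 of the libraries other than si-Control 2 and si-*Fndc1* 3 (log2 fold changes of -0.24 to -0.21).

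**Figure D4:**
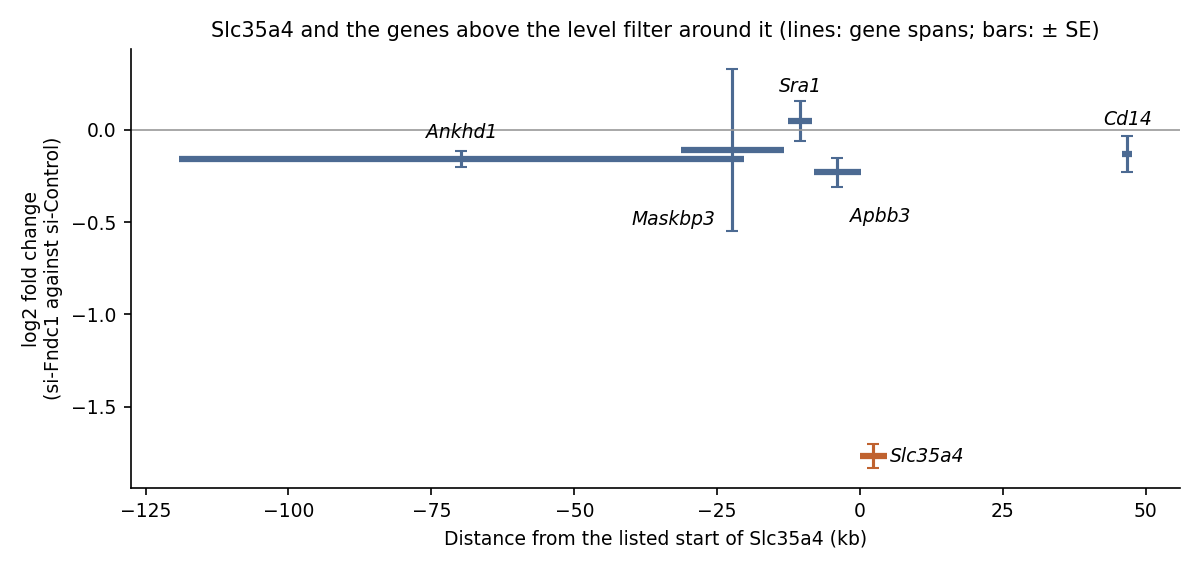
Log2 fold change in si-*Fndc1* against si-Control (y axis, bars ± standard error) of *Slc35a4* and of the genes above the level filter that overlap it or lie within 50 kb, drawn along their listed spans (x axis, kb from the listed start of *Slc35a4*). *Slc35a4* stands at -1.77 and its neighbors between -0.23 and 0.05.

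The plot of neighbors holds 4 more genes. *Ankhd1*, which encodes an ankyrin repeat protein and ends 20301 bases before *Slc35a4*, fell by 0.16 (edgeR, standard error 0.05, adjusted p = 0.0191), from 5.89 to 5.25 FPKM. *Sra1*, the gene of the steroid receptor RNA activator, 8399 bases before it, was at 18.1 ± 1.81 and 18.6 ± 3.08 FPKM (log2 fold change 0.05, adjusted p = 0.775), and without si-*Fndc1* library 5 its log2 fold change was -0.04. *Maskbp3*, 13297 bases before *Slc35a4*, varied widely within both groups, from 480 to 1900 reads per library (log2 fold change -0.11, standard error 0.44, adjusted p = 0.871). *Cd14*, a co-receptor for bacterial lipopolysaccharide, 41205 bases after it, was at 3.87 and 3.51 FPKM (-0.13, adjusted p = 0.335). Below the level filter, *Eif4ebp3*, an inhibitor of the cap-binding protein eIF4E, had 8 to 86 reads per library (0.190 and 0.761 FPKM, with overlapping groups) and *E230025N22Rik* 0 to 26. Among the relatives, *Slc35a1* overlaps a 7SK gene with 0 to 6 reads and *Slc35a3* overlaps *Gm43191*, which had 0 reads in every library.

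Likeness to *Slc35a4* was measured by the correlation of log2 CPM (counts scaled to library size) over the 10 libraries, as a description, since these libraries fall into 2 groups and genes that differ between groups correlate for that reason. The 5 most alike genes were *Tnks1bp1* (Pearson r = 0.992), *Thsd7a* (0.989), *Itpr2* (0.988), *Csf1* (0.987) and *Slc35e4* (0.987). They encode a tankyrase-binding protein, a thrombospondin-domain protein, an IP3 receptor, macrophage colony-stimulating factor and a further member of the SLC35 superfamily. Their log2 fold changes were much smaller than that of *Slc35a4*, from -0.36 for *Itpr2* to -0.20 for *Csf1*, and 673 tested genes had an r of at least 0.9. After the group means were taken out, r was 0.0052 for *Itpr2* and 0.446 to 0.585 for the other four. Over the same libraries, r of *Slc35a4* with *Slc35a1* was -0.294, with *Slc35a2* 0.479, with *Slc35a3* -0.877 and with *Slc35a5* -0.550. After the group means were taken out, these values were 0.191, -0.320, -0.135 and -0.555.

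The other genes of the pathway were taken from 7 lists, which were chosen with earlier results of these data known. The lists hold 122 genes, of which 82 passed the level filter. Of these, 8 rose (9.76%, against 17.3% of all tested genes) and 15 fell (18.3%, against 17.2%), with a median log2 fold change of -0.04. No tested gene on these lists was as low as *Slc35a4*. Since *Slc35a4* was chosen for its fall, this was likely beforehand. The lowest was *B4gat1*, the glucuronyltransferase that primes the matriglycan of alpha-dystroglycan, named here after its value was seen, at -0.69 with a standard error of 0.82 (adjusted p = 0.558, edgeR).

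**Figure D5:**
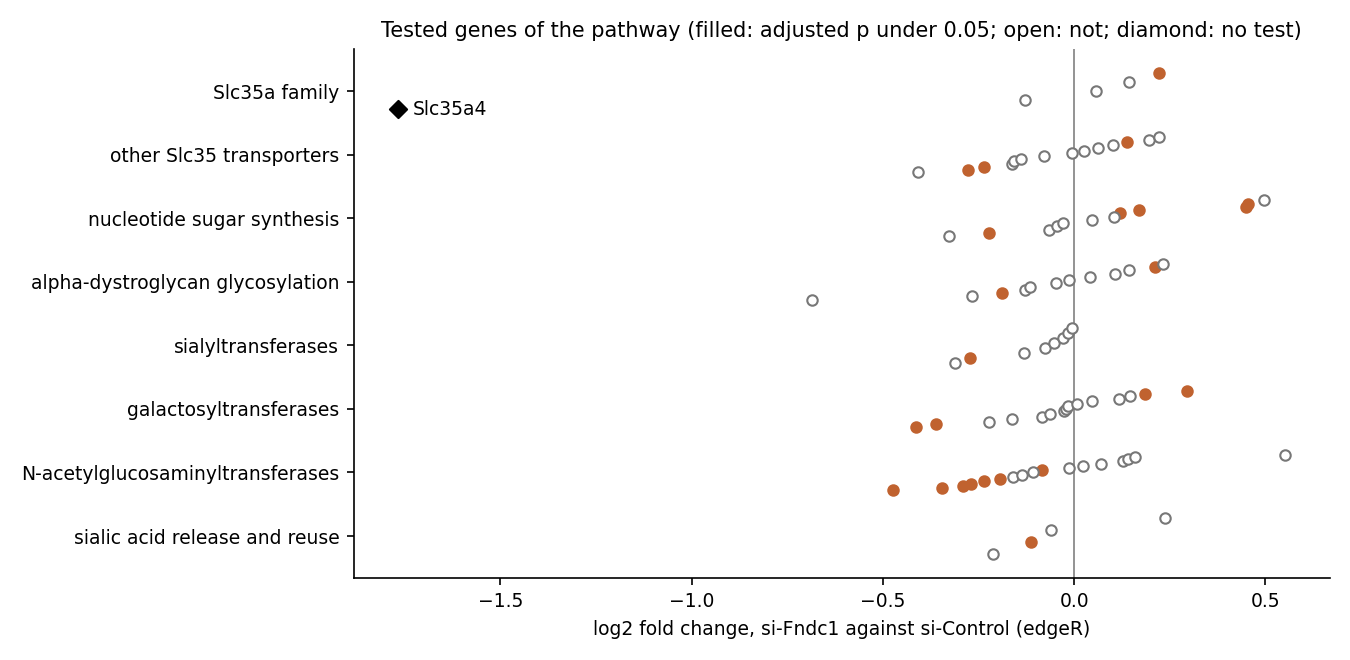
Log2 fold change in si-*Fndc1* against si-Control (x axis) of the tested genes of the Slc35a family and of 7 pathway lists (rows; points are spread vertically only to separate them), filled where the adjusted p was under 0.05. *Slc35a4* (diamond, not tested) stands at -1.77, and the other genes lie between -0.69 and 0.55.

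The plot of pathway genes sets the family beside those that make, carry and use its substrates. The percentages of each list below stand against 17.3% of all tested genes that rose and 17.2% that fell. Among the other SLC35 transporters, 22 were listed and 14 tested. Of these 1 rose (7.14%) and 2 fell (14.3%), with a median of -0.04. *Slc35e4*, an orphan transporter and the most highly expressed gene of this list, was at 25.4 to 26.8 FPKM in si-Control and 21.0 to 22.2 FPKM in si-*Fndc1*. It fell by 0.28 (edgeR, standard error 0.03, adjusted p = 5.3e-05), and with the offset for GC content and length it was at -0.07 (adjusted p = 0.150, and 3.2e-14 to 0.219 over all alternatives). *Slc35d1*, which carries UDP-glucuronic acid and UDP-N-acetylgalactosamine, fell from 1.37 to 1.15 FPKM (-0.23, adjusted p = 0.0266). Its call was lost without si-Control library 1 or 4 or si-*Fndc1* library 2, 3 or 4 (-0.23 to -0.19). *Slc35f5* rose from 16.9 to 18.5 FPKM (0.14, adjusted p = 0.0293). Its call was lost without si-Control library 3, 4 or 5 or si-*Fndc1* library 2, 3 or 5 (0.12 to 0.14), and it was at -0.01 with the offset for GC content and length.

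Of the enzymes that make nucleotide sugars, 12 of 13 were tested. Here 4 rose (33.3%, against 17.3% of all tested genes) and 1 fell (8.33%, against 17.2%), with a median of 0.08. *Ugp2*, which makes UDP-glucose, had the highest level of the list. It was at 27.9 to 31.5 FPKM in si-Control and 37.5 to 42.3 FPKM in si-*Fndc1* and rose by 0.45 on the log2 scale (edgeR, standard error 0.05, adjusted p = 6.1e-05). *Gnpnat1*, which acetylates glucosamine 6-phosphate on the way to UDP-N-acetylglucosamine, rose from 2.09 ± 0.163 to 2.85 ± 0.450 FPKM (0.45, standard error 0.11, adjusted p = 0.00750). *Gfpt1* and *Uap1*, the entry and last steps of the same route, named here after their values were seen, rose by 0.12 (adjusted p = 0.0429) and 0.17 (adjusted p = 0.0471). *Pgm3*, a further step of that route, was not called (0.05, edgeR, adjusted p = 0.635). *Galk1*, which phosphorylates galactose, fell from 37.2 ± 2.06 to 31.7 ± 1.45 FPKM (-0.22, adjusted p = 0.00444). With the offset for GC content and length, 1 gene of the list rose and 1 fell, and *Ugp2* (0.15) and *Gnpnat1* (0.17) were no longer called. Without the offset on the same genes, 4 rose and 1 fell. Over all 11185 genes 1259 rose and 1278 fell with the offset, and 2099 rose and 2145 fell without it.

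The genes of alpha-dystroglycan glycosylation were 14, with 12 tested, of which 1 rose (8.33%) and 1 fell (8.33%), with a median of -0.03. *Rxylt1*, which adds xylose to ribitol phosphate, rose from 5.74 ± 0.380 to 6.61 ± 0.389 FPKM (0.21, adjusted p = 0.0171), a call that the offset for GC content removed (0.07). *Pomt2*, a subunit of the enzyme that starts O-mannosylation, fell from 3.95 ± 0.127 to 3.44 ± 0.268 FPKM (-0.19, adjusted p = 0.0249). Its call was lost without si-Control library 3 or 4 or si-*Fndc1* library 1, 3, 4 or 5 (-0.18 to -0.17), and with the offset for GC content (-0.05). *Dag1*, which encodes dystroglycan itself and had the highest level of the list, was at 91.1 ± 13.99 and 75.3 ± 5.11 FPKM (-0.27, adjusted p = 0.0507 in edgeR). It was called in DESeq2 (-0.27, adjusted p = 0.0175), at a mean FPKM of at least 5 (adjusted p = 0.0415), with library size as the only scaling (0.0482), and without si-Control library 2 (-0.33) or si-*Fndc1* library 2 (-0.31). Under the offset for GC content it was at -0.11 (adjusted p = 0.388), and over all alternatives the adjusted p ranged from 0.0115 to 0.475. With that offset 2 genes of the list rose and 0 fell, with a median of 0.06, against 1 and 2 of the same genes without it. Over all 11185 genes 1259 rose and 1278 fell with the offset.

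The transferases that use the substrates of *Slc35a1*, *Slc35a2* and *Slc35a3* followed. Of 20 sialyltransferases 8 were tested, 0 rose and 1 fell (12.5%), with a median of -0.06. *St3gal1*, which sialylates O-glycans, fell from 13.6 ± 0.478 to 11.2 ± 0.868 FPKM (-0.27, adjusted p = 0.00317), and *St3gal5*, which makes the ganglioside GM3 and was the highest of the list, was at 59.0 ± 5.33 and 58.4 ± 3.96 FPKM (-0.01, adjusted p = 0.961). Of 18 galactosyltransferases 15 were tested, 2 rose (13.3%) and 2 fell (13.3%), with a median of -0.02. *B4galt5*, a lactosylceramide synthase, fell from 28.6 ± 0.872 to 22.2 ± 0.545 FPKM (-0.36, edgeR, standard error 0.03, adjusted p = 3e-05). Its groups did not overlap, as was so in this direction for 13.0% of tested genes. *B4galt2* fell from 9.37 ± 1.41 to 6.997 ± 0.488 FPKM (-0.41, adjusted p = 0.00924) and lost its call with the offset for GC content (-0.21). *C1galt1*, which makes the core 1 O-glycan, rose from 9.58 ± 0.233 to 11.7 ± 0.667 FPKM (0.30, adjusted p = 0.000257), and its chaperone gene *C1galt1c1*, named after its value was seen, rose by 0.19 (adjusted p = 0.00456). *B4galt1*, the highest of the list, was at 70.8 FPKM in both groups (log2 fold change 0.01, adjusted p = 0.851).

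The N-acetylglucosaminyltransferases had the most calls in 1 direction. Of 29 listed genes 17 were tested, 0 rose and 7 fell (41.2%, against 17.2% of all tested genes), with a median of -0.11. *Extl3*, which starts heparan sulfate chains, was at 29.3 to 32.1 FPKM in si-Control and 22.7 to 25.05 FPKM in si-*Fndc1* and fell by 0.34 (edgeR, standard error 0.03, adjusted p = 5e-05). *Extl1* fell from 4.15 ± 0.762 to 2.97 ± 0.339 FPKM (-0.47, adjusted p = 0.0132). *Mgat5*, which branches N-glycans, fell from 2.00 ± 0.113 to 1.63 ± 0.116 FPKM (-0.29, adjusted p = 0.00391). *Ext1*, the highest of the list and a heparan sulfate polymerase, fell from 42.7 ± 0.669 to 40.0 ± 0.812 FPKM (-0.08, adjusted p = 0.0235). It was no longer called without si-Control library 1 or 3 or si-*Fndc1* library 1 or 3 (-0.08). The other three that fell, named after their values were seen, were *Lfng* (-0.27) and *Rfng* (-0.24), which extend O-fucose on Notch, and *Ext2* (-0.19), the partner of *Ext1*. With the offset for GC content and length 1 gene of the list rose and 2 fell, against 0 and 6 of the same genes without it. Over all 11185 genes 1259 rose and 1278 fell with the offset. *Extl1* (-0.29) and *Mgat5* (-0.15) lost their calls.

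Of 6 genes that release or reuse sialic acid 4 were tested, 0 rose and 1 fell (25%), with a median of -0.09. *Neu1*, the lysosomal sialidase and the highest of the list, was at 12.1 to 13.6 FPKM in si-Control and 11.6 to 11.99 FPKM in si-*Fndc1* (-0.11, edgeR, standard error 0.04, adjusted p = 0.0460). Its call held without si-Control library 1 or 2 and was lost without any 1 of the other libraries (-0.12 to -0.09), and with the offset for GC content its log2 fold change was 0.05.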

How the data were processed

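RNA-sequencing of 10 C2C12 libraries was analysed. The members and gene lists were chosen with earlier results of these data known. Groups and replicate numbers came from the sample titles. The authors deposited raw gene counts, and beside each count an FPKM value, set to 0.0001 where the count is 0. The paper's methods name TopHat 2.0.10, mm10 and htseq-count 0.6.1 for 4 libraries, the series description STAR 2.4.2a and mm9, and the submitters' processing notes GRCm39 and cutadapt 1.9.

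The quasi-likelihood test of edgeR 4.0.16 (R 4.3.3, TMM scaling) was run on counts of genes whose mean FPKM reached 0.5, without a replicate term, with Benjamini-Hochberg adjustment over 13548 genes and a threshold of 0.05. The paper names DESeq2 (1.42.0 here), which was an alternative, as were limma 3.58.1 on log2(FPKM + 1) and log2(FPKM + 0.1), other scalings and filters, each library left out, the replicate number as a block, and an offset for GC content and length (splines of 5 degrees of freedom, 11185 genes with a known value). No 2 libraries of a group agreed within counting noise (20 pairs, lowest chi-square over its degrees of freedom 40.7). The edgeR fit (alone, with the block and with the offset), DESeq2 and limma with 1 added before the log were tested on simulated data. The other alternatives were not tested in this way, and no GC trend between groups was simulated.

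Named genes were the members, *Fndc1*, up to 3 called genes with the largest change and the highest gene per list, genes with counts within 50 kb of *Slc35a4*, and the 5 most correlated with it (0.5 CPM added before the log). A symbol on more than 1 entry was taken from the entry with more counts.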

Additional observations from a re-analysis of the deposited data

Results flagged for a closer look

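In 6 groups of 5 libraries among the 74 examined, 1 library lay far from the other four (gap to the nearest library over the range of the group above 0.71, which chance gives in about 1 of 20 groups). No member of the Slc35a family was among them. *Pomt2* was at 3.92 FPKM in si-*Fndc1* library 2 and at 3.31 to 3.34 FPKM in the others of its group. *St3gal1* was at 12.8 FPKM in si-Control library 2, below 13.8 to 13.9 FPKM in the others. *St3gal5* was at 49.6 FPKM in si-Control library 3, against 59.7 to 62.7 FPKM. *B4galt2* was at 6.93 FPKM in si-Control library 1, against 9.37 to 10.3 FPKM, a value within the si-*Fndc1* range. *Mgat5* was at 1.83 FPKM in si-*Fndc1* library 5, above 1.54 to 1.62 FPKM. *E230025N22Rik*, next to *Slc35a4*, had 0 reads in si-Control library 2 and is listed there at 0.0001 FPKM, against 0.0578 to 0.0742 FPKM.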

How the results depend on the processing

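The log2 fold change of *Slc35a4* was between -1.82 and -1.66 over 21 alternatives, with -1.66 in limma on log2(FPKM + 1), a scale that understates changes of low genes. The offset for GC content and length, alone and with the replicate block, turned *Slc35a1* (-0.20 in both), *Slc35a5* (-0.025 and -0.032), *Slc35f5* (-0.014 in both), *Neu1* (0.047 and 0.048) and *Sra1* (-0.18 in both), and ended the call of *Slc35a3* (0.081 and 0.082). With the block added to it, *Galk1* (-0.14, adjusted p = 0.0530), *St3gal1* (-0.19, adjusted p = 0.0558) and *Ankhd1* (-0.14, adjusted p = 0.0672) were no longer called either. Over all genes it gave 2537 calls, against 4244 of the same genes without it. *St3gal5* was at 0.00048 on those genes. Of the pathway genes, 5 rose with no filter and 5 in limma on log2(FPKM + 0.1), 3 rose and 5 fell with the offset and the block, and 8 fell with the offset alone. Over all genes 2206 of 28952 rose with no filter and 2173 of 13548 in that limma fit. Of 11185 genes 833 rose and 812 fell with the offset and the block, and 1278 fell with the offset alone.

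Same-numbered libraries did not deviate together (r of -0.04 to 0.05, with 2 of 10 libraries closest to their own number), so that no pairing by number was seen. The labels do not say if same-numbered libraries were handled together, and these correlations cannot tell. With the replicate number as a block *Slc35a4* was at -1.77, *Slc35a3* at 0.22 (adjusted p = 0.0411), and 4 pathway genes rose and 12 fell. Over all 13548 genes 1796 rose and 1776 fell with the block. The calls of *Slc35f5* (0.14), *Rxylt1* (0.21), *Ext1* (-0.085), *Neu1* (-0.11) and *Apbb3* (-0.23) were lost.

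With each library left out in turn, *Slc35a1* ranged from 0.017 (without si-*Fndc1* library 5) to 0.088 (without si-*Fndc1* library 3) and *Slc35a5* from 0.084 (without si-*Fndc1* library 2) to 0.18, neither called, and 5 to 7 pathway genes rose (5 without si-Control library 3 or 4) and 10 to 17 fell. Over all 13548 genes 2022 to 2321 rose and 1978 to 2321 fell in these fits. The log2 ratio of *Slc35a2* to *Slc35a3* differed by -0.41 to -0.30 and passed in 1 of the 10 cases, where the smallest possible p is 0.0159. That of *Slc35a2* to *Slc35a5* differed by -0.33 to -0.19 and passed without si-*Fndc1* library 4 (-0.33, adjusted p = 0.0476). *St3gal5* ranged from -0.062 to 0.022, *B4galt1* from -0.0026 to 0.019, *Maskbp3* from -0.41 to 0.19 and *Sra1* from -0.037 to 0.10. *Slc35a2*, *Slc35a3* and *Slc35a5* had no value at a mean FPKM of at least 5. At 1164 reads or more per library, the spread between libraries rather than counting limits the relatives.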
